A study of Mus musculus with 20 samples.

Results

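De novo lipogenesis is the synthesis of fatty acids from the carbon of glucose and other small precursors. The 10 genes described here are its enzymes and their main transcription factors, Acly, Me1, Acaca, Acacb, Fasn, Elovl6, Scd1, Scd2, Srebf1 and Mlxipl. They were chosen by name, from the gene names in the array files, with earlier results of these data known. All 10 were measured, by 23 probes, among 25618 gene names tested. The tissue was visceral adipose tissue (VAT) from the epididymal fat of C57bl/6J male mice of the third generation (F3), with 1 array per mouse. By the study's methods it was taken in the fasting period, when the feeding with the diets named below had ended. The Ref group (6 mice) came from the control lineage, bred on a diet with high-oleic sunflower oil, and received a low-fat reference diet during the challenge. The HFoleic group (6 mice) came from the same lineage and received a high-fat, high-sucrose diet. The HFepa group (8 mice) received that same high-fat diet and came from a lineage bred over the generations with a fish oil rich in eicosapentaenoic acid (EPA), an n-3 fatty acid. No group of the EPA lineage on the reference diet is among these arrays, so the effect of lineage is read on the high-fat diet only.

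In this pathway ATP citrate lyase cleaves citrate into cytosolic acetyl-CoA, and acetyl-CoA carboxylase turns it into malonyl-CoA. Fatty acid synthase builds palmitate from malonyl-CoA with NADPH, part of which malic enzyme supplies, and an elongase and desaturases then lengthen the chain and add a double bond. The transcription factors SREBP-1c and ChREBP switch these genes on in response to insulin and to glucose. White adipose tissue is one of the sites of this synthesis, and a diet rich in fat is known to lower it.

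Values are normalized log2 intensities of the brightest probe of each gene, so that a difference of 1 is a doubling. Each difference comes from limma, with its standard error (SE) and a p adjusted after Benjamini and Hochberg for the 39390 probes tested, and a gene was called at an adjusted p under 0.05. On each array 66.06% to 71.88% of spots were above background, and none was saturated. The 10 adipocyte markers, among them Adipoq and Plin1, were above background on all 20 arrays. The epididymis or testis marker level was raised in 5 arrays, those of Ref mice 3 and 6, HFoleic mouse 5 and HFepa mice 2 and 4, and results that changed without them are given below. The brown adipocyte list reached 11.40 in HFepa mouse 7 and at most 9.59 in the other mice. The liver list was uneven too, from 7.45 to 11.18, highest in HFoleic mouse 6 (11.18), HFepa mouse 5 (10.12) and HFepa mouse 6 (9.97). No fit left out these mice together. Probe positions are on genome build mm9. That the samples came from separate mice is taken from the study's methods.

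The genes of the pathway did not move as 1 block. In HFoleic vs. Ref, 4 of the 10 were called, where 31.8% of all tested genes were. Acaca, Acacb and Elovl6 fell (16.7% of all tested genes did) and Scd2 rose (15.2%), while Fasn, Acly, Me1, Scd1, Srebf1 and Mlxipl did not pass the test. The groups did not overlap for 3 of the 10 genes, against 14% of all tested genes. The median difference over the 10 genes was -0.19, beside -0.04 over all tested genes. Between the HFepa and Ref mice 1 of the 10 was called, Acaca, which fell, where 2.46% of all tested genes were called and 1.42% called lower. The median was -0.11, and the groups overlapped for all 10 genes, whereas they did not for 1.04% of all tested genes. Between the HFepa and HFoleic mice limma called 0 of the 10, as of all tested genes (0%), and 4 had an unadjusted p under 0.05, as had 20.8% of all tested genes. The groups overlapped for all 10, against 0.355% of all tested genes without overlap, and the median was -0.01. The comparisons share their groups, so that their values are given side by side and none supports another. In bulk tissue, fewer cells of a type and less RNA per cell cannot be told apart.

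**Figure D1:**
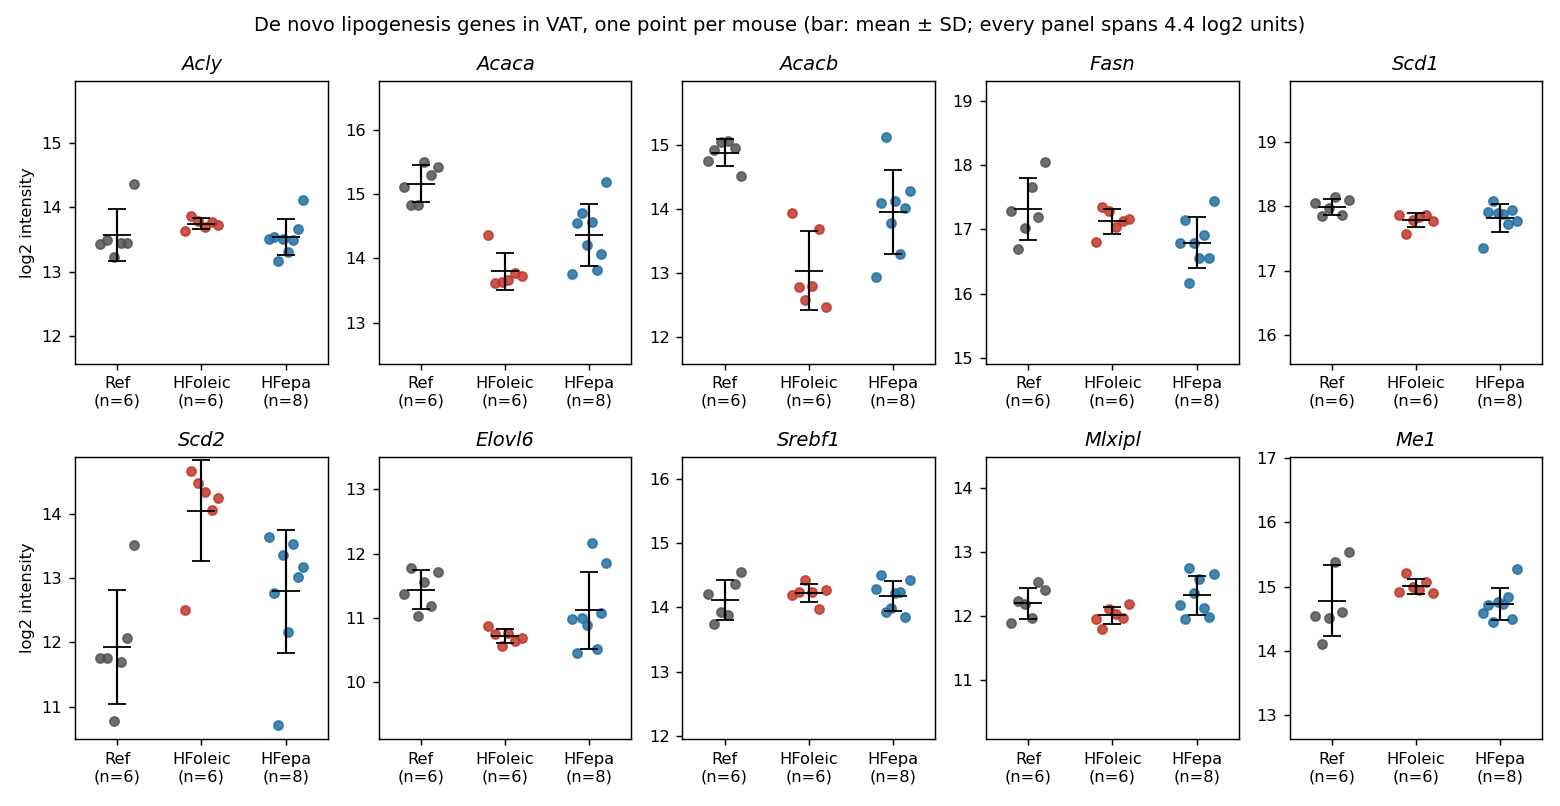
Normalized log2 intensity (y axis) of the 10 genes in each mouse, by group (x axis), with the mean and SD as black bars. Acaca and Acacb in the HFoleic mice lie below all Ref mice, Scd2 lies above them in all HFoleic mice except mouse 1, and HFepa mice cover most of the range between both groups.

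The largest falls were those of the acetyl-CoA carboxylases. Acaca, the cytosolic carboxylase that commits acetyl-CoA to synthesis, ranged from 14.83 to 15.51 in the Ref mice (median 15.20), from 13.62 to 14.36 in the HFoleic mice (median 13.70) and from 13.76 to 15.19 in the HFepa mice (median 14.37). Every HFoleic mouse was below every Ref mouse, and the HFepa mice spread from the level of the former to that of the latter. Acaca was 2.58-fold lower in HFoleic than in Ref mice (log2 -1.37, SE 0.21, adjusted p 0.000385) and 1.75-fold lower in HFepa than in Ref mice (log2 -0.81, SE 0.19, adjusted p 0.036). In HFepa vs. HFoleic it differed by 0.56 (SE 0.19, 95% interval 0.16 to 0.96), which did not pass the adjustment (adjusted p 0.137). The probe lies at chr11:84215093-84215152. Of the 7 probes of Acaca, 6 were called lower in HFoleic vs. Ref (30.8% of all probes were called), and the exception was a dim one with a difference of 0.01. Against the Ref mice, 4 of the 7 were called lower in the HFepa mice (2.26% of all probes were called). Within the 3 slides the difference in HFoleic vs. Ref was -1.05, -1.85 and -1.35, and in HFepa vs. Ref -0.46, -1.27 and -0.67. Slide 2 held 1 HFoleic mouse, so the second within-slide value of comparisons with HFoleic mice, here and below, rests on that array.

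The call of Acaca in HFepa vs. Ref was close to the threshold. It was lost in 8 of the 20 fits that left out 1 array, those without Ref mouse 2, 3, 4, 5 or 6 or HFepa mouse 1, 6 or 7, with adjusted p from 0.0525 to 0.0882. It was also lost when only the compared groups were fitted (adjusted p 0.0788) and without the 5 arrays with epididymis or testis markers (-0.86, adjusted p 0.147). The former fit called 140 and the latter 0 of all probes in HFepa vs. Ref, against 892 in the fit to all 20 arrays. In HFoleic vs. Ref the call held in all 20 fits that left out 1 array.

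Acacb encodes the carboxylase at the outer membrane of mitochondria, whose malonyl-CoA restrains the entry of fatty acids for oxidation. Its level ranged from 14.51 to 15.07 in the Ref mice (median 14.94), from 12.47 to 13.93 in the HFoleic mice (median 12.79) and from 12.94 to 15.11 in the HFepa mice (median 14.06). The Ref mice lay close together and above all HFoleic mice, while HFepa mouse 3 was above every Ref mouse and HFepa mice 1, 4 and 6 were within the range of the HFoleic mice. Acacb was 3.56-fold lower in HFoleic than in Ref mice (log2 -1.83, SE 0.29, adjusted p 0.000471). The differences were -0.92 in HFepa vs. Ref (SE 0.28, adjusted p 0.0752) and 0.92 in HFepa vs. HFoleic (SE 0.28, adjusted p 0.125), neither past the threshold. Without HFepa mouse 3 the difference in HFepa vs. Ref was called (-1.08, adjusted p 0.0168). All 3 probes of Acacb were called lower in HFoleic vs. Ref, but the size depended on the probe. The brightest, at chr5:114700702-114700761, gave the value above, the other 2 gave 1.52-fold and 1.35-fold, and the mean of the 3 probes gave a log2 difference of -0.96 (adjusted p 0.000625). Within the slides, HFoleic vs. Ref gave -1.76, -2.01 and -1.87, and HFepa vs. HFoleic 0.72, 0.94 and 1.44.

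Scd2 was the gene of the pathway that rose. It encodes a stearoyl-CoA desaturase, which puts a double bond into saturated acyl chains, and is expressed in many tissues besides fat. Its level ranged from 10.77 to 13.51 in the Ref mice (median 11.76), from 12.50 to 14.66 in the HFoleic mice (median 14.30) and from 10.72 to 13.63 in the HFepa mice (median 13.10). All HFoleic mice except mouse 1 were above every Ref mouse, and Ref mouse 7 and HFoleic mouse 1 made the groups overlap. Scd2 was 4.35-fold higher in HFoleic than in Ref mice (log2 2.12, SE 0.48, adjusted p 0.00283), the largest difference among the 10 genes. It differed by 0.87 in HFepa vs. Ref (SE 0.45, adjusted p 0.28) and by -1.26 in HFepa vs. HFoleic (SE 0.45, 95% interval -2.19 to -0.32, adjusted p 0.144). Within the slides HFoleic vs. Ref gave 1.94, 2.06 and 2.85, and HFepa vs. HFoleic -0.71, -1.44 and -2.41. The probe is at chr19:44381024-44381083, and whether it also reads other Scd copies was not tested.

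Scd1, the main desaturase of white fat and liver, ranged from 17.85 to 18.15 in the Ref mice, from 17.58 to 17.87 in the HFoleic mice and from 17.35 to 18.08 in the HFepa mice (medians 18.01, 17.82 and 17.89). The 3 groups overlapped. Its difference was -0.21 in HFoleic vs. Ref (SE 0.10, adjusted p 0.105), -0.18 in HFepa vs. Ref and 0.03 in HFepa vs. HFoleic. The first of these was called by the mean of the probes (-0.53, adjusted p 0.00414), on the processed signal (-0.45, adjusted p 0.00414), after median centring (-0.39, adjusted p 0.0116), with the compared groups alone in the fit (adjusted p 0.0429) and without HFepa mouse 1 (adjusted p 0.0321). The brightest probe is at chr19:44469387-44469446. A second and dimmer probe under the same name, on the opposite strand in the annotation, was lower by this comparison too (-0.86, SE 0.17, adjusted p 0.00124), and which transcript it reads is not settled.

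Elovl6, the elongase that carries palmitate to stearate, was the third gene that fell. Its level ranged from 11.03 to 11.78 in the Ref mice (median 11.47), from 10.56 to 10.87 in the HFoleic mice (median 10.72) and from 10.45 to 12.17 in the HFepa mice (median 10.99). The HFoleic mice lay close together below all Ref mice, whereas the HFepa mice spanned both groups. Elovl6 was 1.66-fold lower in HFoleic than in Ref mice (log2 -0.73, SE 0.23, adjusted p 0.0203). The differences in HFepa vs. Ref (-0.32, SE 0.21, adjusted p 0.414) and in HFepa vs. HFoleic (0.41, SE 0.21, adjusted p 0.288) did not pass the test. Within the slides HFoleic vs. Ref gave -0.80, -0.89 and -0.51. The sign differed between slides in HFepa vs. Ref (0.09, -1.02 and -0.07) and in HFepa vs. HFoleic (0.89, -0.13 and 0.44). The call was lost without the 5 arrays with epididymis or testis markers (-0.68, adjusted p 0.0845). The probe is at chr3:129337756-129337815.

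Fasn, the synthase itself, did not follow the carboxylases. Its level ranged from 16.69 to 18.05 in the Ref mice (median 17.23), from 16.80 to 17.35 in the HFoleic mice (median 17.14) and from 16.17 to 17.45 in the HFepa mice (median 16.79). The range of the Ref mice held all HFoleic mice. The difference was -0.19 in HFoleic vs. Ref (SE 0.20, 95% interval -0.614 to 0.239, adjusted p 0.528). This interval does not reach the difference of either carboxylase by its brightest probe. The dimmer probes of Acacb (-0.607 and -0.433) and 1 probe of Acaca (0.01) lie within it. In the HFepa mice against Ref it was -0.52 (SE 0.19, unadjusted p 0.0134, adjusted p 0.132), and in HFepa vs. HFoleic -0.33 (SE 0.19, adjusted p 0.334). Within the slides HFepa vs. Ref gave -0.06, -0.90 and -0.74, and HFoleic vs. Ref 0.01, -0.50 and 0.10. Fasn has 1 probe, at chr11:120668460-120668519.

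The enzymes that supply acetyl-CoA and NADPH, Acly and Me1, were not called in any comparison. Acly, the ATP citrate lyase at chr11:100337674-100337733, ranged from 13.23 to 14.36 in the Ref mice, from 13.64 to 13.87 in the HFoleic mice and from 13.17 to 14.12 in the HFepa mice (medians 13.45, 13.75 and 13.51). The highest Ref value was that of mouse 7, and without it the HFoleic mice were above all Ref mice. Its difference was 0.18 in HFoleic vs. Ref (SE 0.16, adjusted p 0.413), and 0.34 without Ref mouse 7 (adjusted p 0.0329). A dimmer probe of Acly gave -0.12 in the same comparison (adjusted p 0.4659). Me1, the cytosolic malic enzyme at chr9:86475077-86475136, ranged from 14.11 to 15.53, from 14.91 to 15.21 and from 14.45 to 15.27 in Ref, HFoleic and HFepa mice (medians 14.57, 14.97 and 14.72). The Ref mice were spread more widely than either high-fat group, with SDs of 0.55, 0.12 and 0.26. Its difference was 0.23 in HFoleic vs. Ref (SE 0.19, adjusted p 0.39), and -0.05 by its second probe (adjusted p 0.886). Within the slides this comparison gave 0.22, -0.03 and 0.45 for Acly and 0.60, -0.24 and 0.47 for Me1.

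By their brightest probes, neither of the transcription factor genes was called in any comparison. Srebf1, which encodes SREBP-1a and SREBP-1c, ranged from 13.74 to 14.55 in the Ref mice, from 13.98 to 14.42 in the HFoleic mice and from 13.84 to 14.50 in the HFepa mice (medians 14.07, 14.24 and 14.23). The groups overlapped almost completely, with differences of 0.11 (95% interval -0.16 to 0.39), 0.07 (-0.19 to 0.32) and -0.05 (-0.31 to 0.21) in the HFoleic and the HFepa against the Ref mice and in the HFepa against the HFoleic mice. Its 1 probe, at chr11:60013214-60013273, does not tell the isoforms apart. Mlxipl, which encodes ChREBP, ranged from 11.89 to 12.53, from 11.81 to 12.19 and from 11.96 to 12.76 in Ref, HFoleic and HFepa mice (medians 12.21, 11.997 and 12.26). By this probe, at chr5:135613705-135613764, its difference was -0.19 in HFoleic vs. Ref (SE 0.14, adjusted p 0.312), 0.12 in HFepa vs. Ref and 0.31 in HFepa vs. HFoleic (unadjusted p 0.0249, adjusted p 0.183). The other 2 probes of Mlxipl were called lower in HFoleic vs. Ref, with differences of -0.36 and -0.36 (SE 0.10 and 0.08, adjusted p 0.00839 and 0.00394). In the HFepa mice against Ref they gave -0.20 and -0.09, opposite in sign to the brightest probe, and neither was called.

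**Figure D2:**
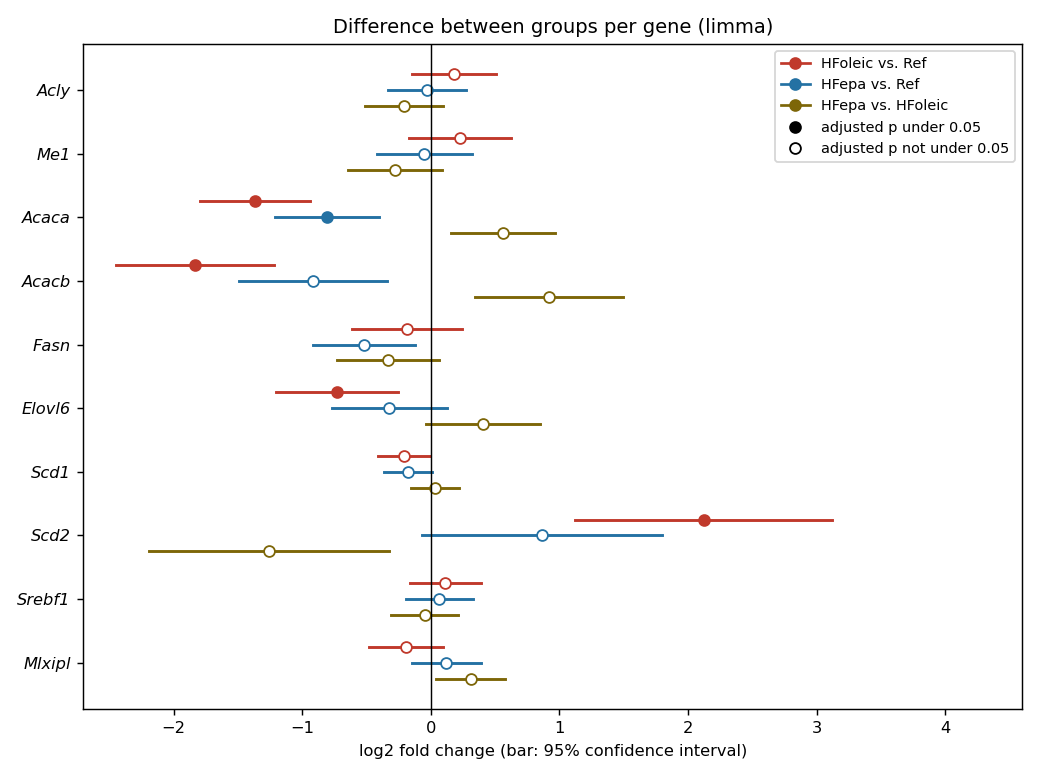
Log2 fold change of each gene (x axis) with its 95% confidence interval in the 3 comparisons, with filled points for an adjusted p under 0.05. In HFoleic vs. Ref Acaca, Acacb and Elovl6 are filled on the left and Scd2 on the right, in HFepa vs. Ref the 1 filled point is Acaca, and in HFepa vs. HFoleic all points are open.

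The 4 genes with an unadjusted p under 0.05 in HFepa vs. HFoleic were Acaca, Acacb, Mlxipl and Scd2, the first 3 higher and Scd2 lower in the HFepa mice. Single mice decided which of them passed the adjustment. Without HFoleic mouse 1, Acacb (1.096, adjusted p 0.038) and Scd2 (-1.57, adjusted p 0.0479) were called, in a fit that called 1660 of all probes. Without HFepa mouse 1, Acacb (1.06, adjusted p 0.0278) and Acaca (0.64, adjusted p 0.0439) were called, in a fit that called 2864 of all probes. With all 20 arrays 1 probe was called in this comparison, which is 0.00254% of those tested and reads none of the 10 genes.

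Beyond the group means, some of the genes varied together among mice. After subtraction of group means, Fasn correlated over the 20 arrays with Me1 (r = 0.88), Acly (r = 0.77), Scd2 (r = 0.69) and Srebf1 (r = 0.68), and Acly with Scd2 (r = 0.70). Ref mouse 7 and HFepa mouse 8 had the highest values of their groups for Fasn, Acly and Me1. Acaca correlated with Acacb (r = 0.65) and Acacb with Scd1 (r = 0.63), while Acacb and Scd2 ran opposite to each other (r = -0.79). Acaca and Fasn, which act in sequence, correlated at r = 0.29, and Acacb and Fasn at r = -0.37. Some of these values rested on that pair of mice, which had the highest mean standardized level of the 10 genes. Over the other 18 mice Fasn and Acly correlated at r = 0.49, Fasn and Srebf1 at 0.52 and Acly and Me1 at 0.12, whereas Fasn and Me1 were at 0.77, Acly and Scd2 at 0.80 and Acacb and Scd2 at -0.85. Srebf1 was there at 0.07 with Acly, 0.15 with Me1 and 0.30 with Scd2, beside 0.52, 0.47 and 0.48 over all 20. Scd2 and Me1 were at 0.24, beside 0.46 over all 20. These are descriptions of arrays that share a normalization and, in sets, a slide.

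**Figure D3:**
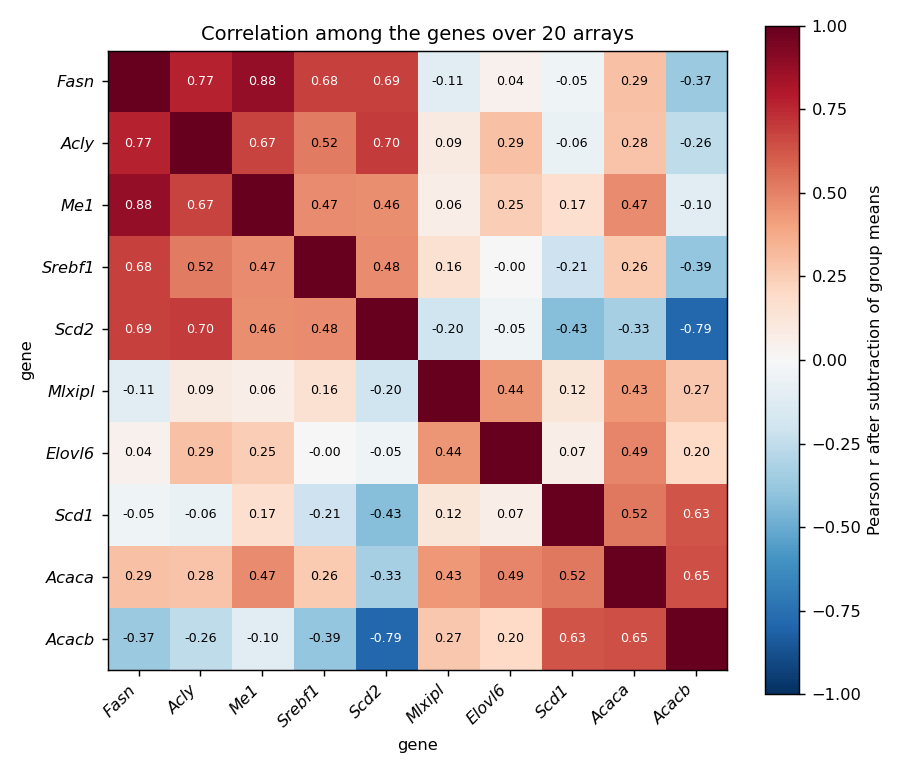
Pearson correlation between each pair of the 10 genes over 20 arrays after subtraction of group means, from -1 (blue) to 1 (red). Fasn, Acly, Me1, Srebf1 and Scd2 form a red block at the upper left, Scd1, Acaca and Acacb form another at the lower right, and Scd2 and Acacb meet in the darkest blue cell (-0.79).

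The RefSeq promoter windows on GRCm38.p6 are shown for Fasn, for Acly and Me1, which correlated with it over all 20 mice, and for Elovl6 and Acacb, which fell in the HFoleic mice. Each is the 250 bases before a transcription start, 5′ to 3′ on the strand of the gene, with motif matches in capitals. They lie at chr11:120824548-120824797 (Fasn, minus strand), chr11:100528001-100528250 (Acly, minus strand), chr9:86695915-86696164 (Me1, minus strand), chr3:129532136-129532385 (Elovl6, plus strand) and chr5:114165268-114165517 (Acacb, plus strand).
Fasn: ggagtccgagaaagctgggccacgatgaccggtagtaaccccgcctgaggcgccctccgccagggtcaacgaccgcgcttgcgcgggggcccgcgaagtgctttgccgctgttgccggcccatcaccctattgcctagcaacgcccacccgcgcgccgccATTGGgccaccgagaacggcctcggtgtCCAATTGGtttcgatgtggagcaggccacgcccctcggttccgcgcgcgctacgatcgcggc
Acly: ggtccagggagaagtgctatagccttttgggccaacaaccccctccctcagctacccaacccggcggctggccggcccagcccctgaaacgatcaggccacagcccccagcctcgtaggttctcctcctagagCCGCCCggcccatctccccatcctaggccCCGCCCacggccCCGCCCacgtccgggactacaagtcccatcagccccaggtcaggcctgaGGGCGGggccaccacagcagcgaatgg
Me1: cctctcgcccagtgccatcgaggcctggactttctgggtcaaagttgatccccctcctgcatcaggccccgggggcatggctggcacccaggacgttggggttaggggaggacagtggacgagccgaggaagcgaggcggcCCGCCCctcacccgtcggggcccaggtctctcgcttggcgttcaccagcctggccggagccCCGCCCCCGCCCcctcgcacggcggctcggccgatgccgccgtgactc
Elovl6: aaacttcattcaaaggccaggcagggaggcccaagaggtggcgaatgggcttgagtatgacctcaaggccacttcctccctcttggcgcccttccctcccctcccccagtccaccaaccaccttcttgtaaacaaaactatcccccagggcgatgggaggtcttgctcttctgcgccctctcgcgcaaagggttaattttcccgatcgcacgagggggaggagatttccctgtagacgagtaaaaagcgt
Acacb: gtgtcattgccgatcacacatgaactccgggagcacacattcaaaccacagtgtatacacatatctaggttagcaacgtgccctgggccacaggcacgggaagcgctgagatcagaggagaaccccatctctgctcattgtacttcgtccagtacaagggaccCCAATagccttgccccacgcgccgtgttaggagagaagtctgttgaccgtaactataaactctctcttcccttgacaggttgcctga
The letters searched, on both strands, were TCACNCCAC for a sterol regulatory element, which is in 1.05% of the 32851 promoter windows of that length. The E-box was CACGTG, in 6.02% of them. The CCAAT box is spelled by its name and is in 33.8% of them. The GC box was GGGCGG, in 32.7% of them. The Fasn window holds 3 CCAAT boxes, 2 of which overlap in the capitals CCAATTGG, the Acly window 4 GC boxes and the Me1 window 3 GC boxes. The Acacb window, which starts inside the gene and is not its first start, holds 1 CCAAT box, and the Elovl6 window holds none of the 4 motifs. The window of Acaca, which also fell in the HFoleic mice, is not shown and holds none of them either. Over the 12 windows of the 8 matched genes, the sterol regulatory element occurred in 1 and the E-box in 1, each at a different start of Mlxipl. A match describes the letters and is no evidence of binding. Scd1 and Scd2 had no entry.

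Markers of cell types moved with some of these genes. In HFoleic vs. Ref 9 of the 11 macrophage markers were called higher and none lower. Of all tested genes 31.8% were called, 15.2% higher and 16.7% lower, and these shares apply to every marker list in this comparison. The mean level of the macrophage list ranged from 11.31 to 11.83 in the Ref mice, from 12.18 to 13.35 in the HFoleic mice and from 11.22 to 13.30 in the HFepa mice. Of the 10 adipocyte markers 4 were called lower, Lipe (-1.19), Retn (-0.65), Cfd (-0.50) and Pnpla2 (-0.42), and none higher. The other 6 were not called, with values of -0.33 for Plin1, -0.32 for Cebpa, -0.23 for Pparg, -0.03 for Adipoq, 0.02 for Fabp4 and 0.02 for Cidec, and the median of the list was -0.33. The adipocyte level ranged from 16.47 to 16.81 in the Ref mice, from 16.01 to 16.61 in the HFoleic mice and from 16.06 to 16.63 in the HFepa mice. Of 7 progenitor and fibroblast markers, the collagen genes Col1a1 (1.49, adjusted p 0.000453) and Col3a1 (1.37, adjusted p 0.00082) were called higher, and of 6 brown adipocyte markers Otop1 (2.49, adjusted p 0.00139) and Dio2 (0.64, adjusted p 0.013). Among 4 testis markers 1 was called lower, and of the endothelial, mesothelial, liver and epididymis lists limma called 0, with 0, 1, 0 and 1 at an unadjusted p under 0.05. In the comparisons of the HFepa with the Ref and the HFoleic mice limma called 0 of all these markers. At an unadjusted p under 0.05 were 4 and 8 of the 11 macrophage markers and 1 and 3 of the 10 adipocyte markers, beside 21.6% and 20.8% of all tested genes.

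After subtraction of group means, Acaca correlated with the adipocyte level at r = 0.82 and with the macrophage level at r = -0.82, Acacb at 0.84 and -0.71, and Scd1 at 0.75 and -0.57. Scd2 ran the other way, at -0.57 with the adipocyte level and 0.39 with the macrophage level. With the mean level of the 6 endothelial markers, Scd2 correlated at -0.64, Acacb at 0.65, Scd1 at 0.62 and Acaca at 0.55. With the progenitor and fibroblast level Acaca was at -0.55, Acacb at -0.40 and Scd2 at 0.36. Fasn followed neither the adipocyte nor the macrophage level, at -0.02 and -0.03, nor did Srebf1, at -0.12 and 0.00. Relative to the adipocyte level, which moved the median of all genes to 0.32 in HFoleic vs. Ref, Acaca (-1.004, adjusted p 0.000494), Acacb (-1.47, adjusted p 0.000552) and Scd2 (2.48, adjusted p 0.00153) kept their calls and Elovl6 lost it (-0.37, adjusted p 0.167). On that scale Acly (0.54), Me1 (0.59) and Srebf1 (0.48) were called higher, so that 4 of 6 called genes were higher, against 1 of 4 without it. The scale adds the same amount to every gene, and on it 55.2% of all tested genes were called, 51.8% higher. Fasn (0.18), Scd1 (0.15) and Mlxipl (0.17), not called, changed sign. The part of the macrophage, endothelial and fibroblast levels in these results was not tested.

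**Figure D4:**
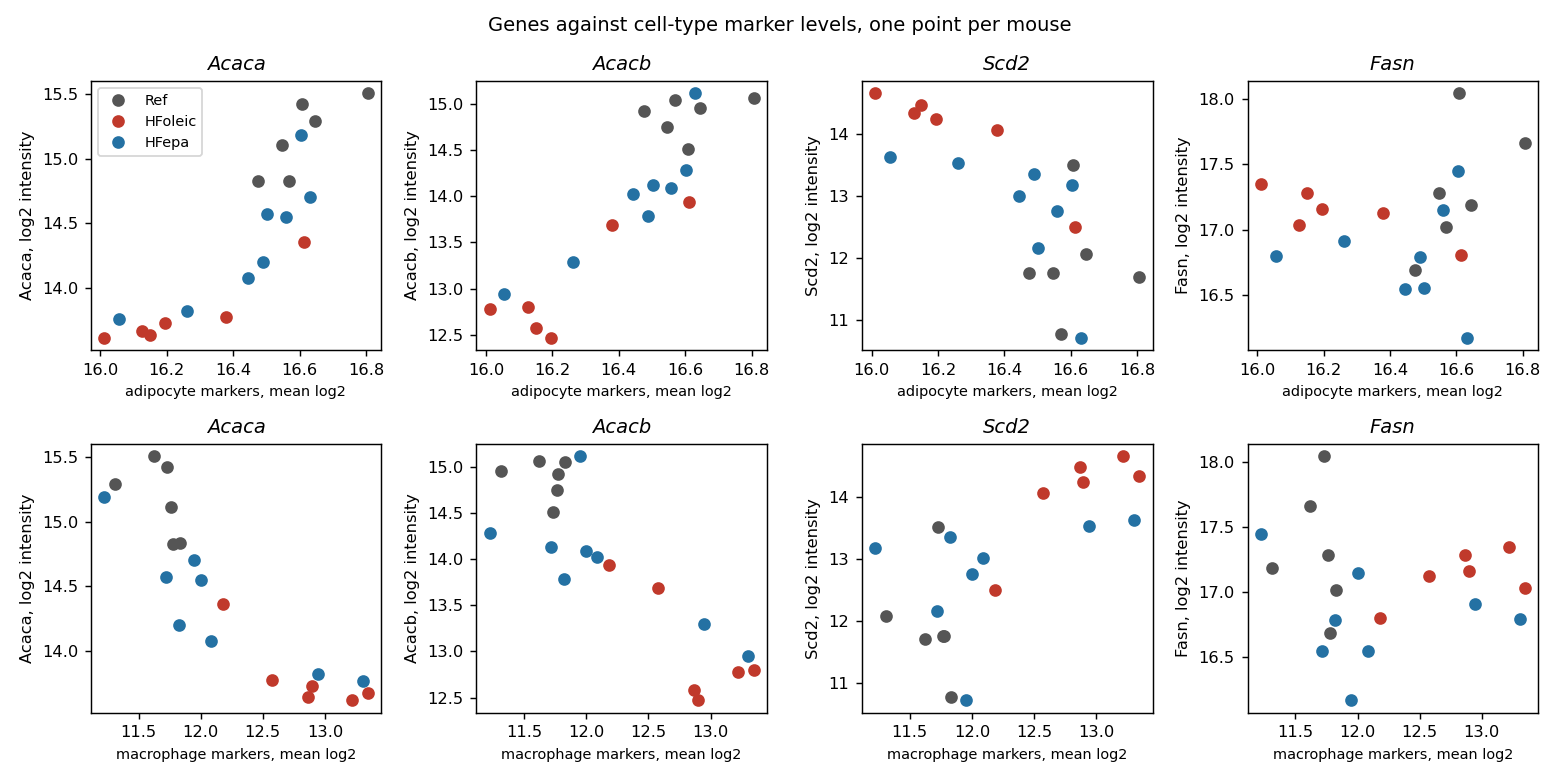
Log2 intensity of Acaca, Acacb, Scd2 and Fasn (y axes) against the mean log2 intensity of the adipocyte markers (upper row) and of the macrophage markers (lower row), with 1 point per mouse coloured by group. Acaca and Acacb rise with the adipocyte level and fall with the macrophage level across all groups, Scd2 goes the other way, and Fasn shows no trend.

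Of 57 other genes of the pathway, all were tested, and 23 were called in HFoleic vs. Ref, 12 higher and 11 lower (31.8% of all tested genes, as above). Between HFepa and Ref mice limma called 0 of them, where 2.46% of all tested genes were called, and in HFepa vs. HFoleic 0. At an unadjusted p under 0.05 were 16 of the 57 in the first of these, beside 21.6% of all tested genes, and 14 in the second, beside 20.8%. The medians of the 57 were -0.07, -0.08 and -0.01 in the 3 comparisons. Among 14 genes of SREBP-1 processing and its partners, 2 were called higher and 2 lower in HFoleic vs. Ref. Of all tested genes 15.2% were called higher and 16.7% lower. Insig1, which holds SREBP in the endoplasmic reticulum, rose by 1.70 (SE 0.28, adjusted p 0.000513), and its relative Insig2 fell by 0.76 on the log2 scale (SE 0.16, adjusted p 0.00219). The liver X receptor gene Nr1h2 differed by -0.16 (adjusted p 0.0259). Srebf2, the sterol-directed relative of Srebf1, was not called, and neither were Scap, Nr1h3 and the site proteases Mbtps1 and Mbtps2.

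Among 8 partners and targets of ChREBP, 3 were called higher and 1 lower in HFoleic vs. Ref, beside 15.2% and 16.7% of all tested genes. Gpd1, which makes glycerol 3-phosphate for triglyceride synthesis, rose by 1.06 (SE 0.24, adjusted p 0.00262), Mlx, the dimer partner of ChREBP, by 0.40 (adjusted p 0.00379), and Txnip, a glucose-responsive target, fell by 0.57 on the log2 scale (SE 0.13, adjusted p 0.00304). Among 11 genes of acetyl-CoA and NADPH supply, 3 rose and 2 fell, beside the same shares of all tested genes. The cytosolic isocitrate dehydrogenase Idh1 rose by 1.03 (SE 0.17, adjusted p 0.000534) and Pgd of the pentose phosphate pathway by 0.58 (adjusted p 0.00616), while Pdha1 of pyruvate dehydrogenase fell by 0.63 on the log2 scale (SE 0.14, adjusted p 0.00224).

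Among 10 genes that act on acetyl-CoA carboxylase or its product, 3 fell and none rose in HFoleic vs. Ref. Of all tested genes 16.7% fell and 15.2% rose. They were Stk11 (-0.35, adjusted p 0.00528) and Prkaa1 (-0.31, adjusted p 0.03), a kinase of AMPK and its catalytic subunit, and Mlycd (-0.41, adjusted p 0.012), which degrades malonyl-CoA. Among 14 genes of elongation and desaturation, 4 rose and 3 fell, beside 15.2% and 16.7% of all tested genes. Scd4, a desaturase, fell by 0.36 on the log2 scale (SE 0.07, adjusted p 0.0011), whereas Elovl1, an elongase of long saturated chains, rose by 0.41 (SE 0.09, adjusted p 0.00171) and Tecr, the last reductase of the elongation cycle, by 0.53 (SE 0.12, adjusted p 0.00393). Whether the probes of Scd4, and of Scd3 named below, also read other Scd copies was not tested. With the slide as a block, 5 of the 57 genes were called lower in HFepa vs. HFoleic, where 1.48% of all tested genes were, namely Insig1 (-1.15, adjusted p 0.0313), Gpd1 (-0.72, adjusted p 0.0461), Idh1 (-0.66, adjusted p 0.029), Tecr (-0.53, adjusted p 0.0293) and Mlx (-0.33, adjusted p 0.035). In that fit none of the 10 genes was called, with adjusted p of 0.0566 for Acacb and 0.0672 for Scd2.

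**Figure D5:**
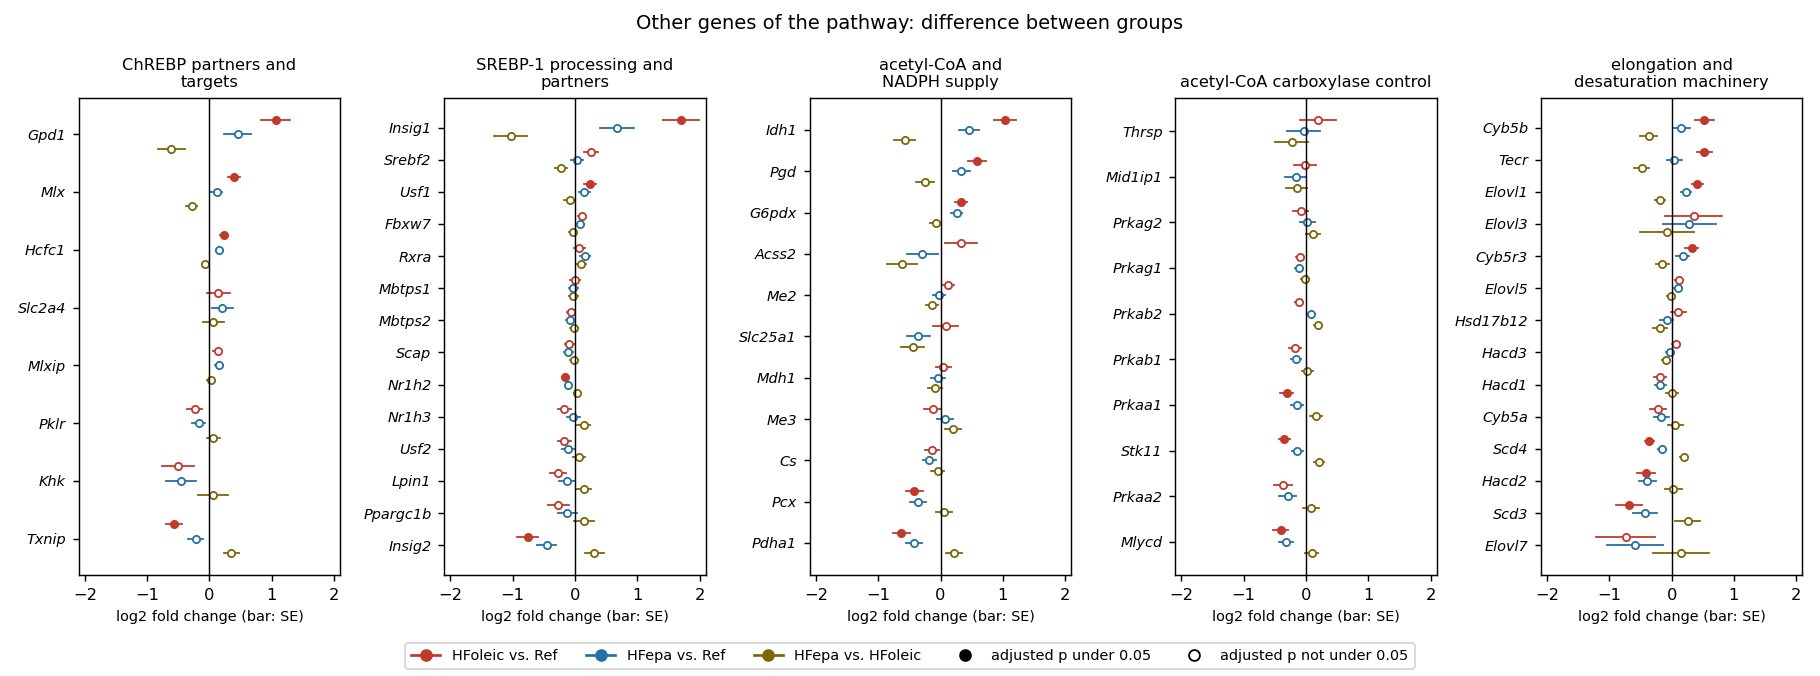
Log2 fold change (x axes) with its SE of the 57 other genes of the pathway, in 5 lists and 3 comparisons, with filled points for an adjusted p under 0.05. Filled points occur in HFoleic vs. Ref only, led by Insig1 (1.70), Gpd1 (1.06) and Idh1 (1.03) on the right and Insig2 (-0.76) on the left.

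Single genes of the pathway also followed these partners among mice. After subtraction of group means, Fasn correlated with Acss2, which makes acetyl-CoA from acetate, at r = 0.91 and with the citrate carrier Slc25a1 at 0.90, and Me1 with the same genes at 0.92 and 0.86. Without Ref mouse 7 and HFepa mouse 8 these 4 values lay between 0.77 and 0.86. Acaca was closest to Pdha1 (0.87), Acacb to Mlycd (0.82) and Txnip (0.80), Scd1 to its neighbour copy Scd3 (0.91) and Scd2 to Cyb5b (0.80), an electron donor. The genes outside the pathway lists most like the mean standardized level of the 10 genes over the 20 arrays were Tkt (r = 0.85), Adcy10 (0.84), Ndufs4 (0.83), Txnrd2 (0.83) and Phkb (0.82), with r from 0.79 to 0.85 after subtraction of group means. These values rested in part on Ref mouse 7 and HFepa mouse 8, without which r for the 5 genes lay between 0.56 and 0.71, and between 0.55 and 0.61 after subtraction of group means. The rank correlation of Tkt over all 20 arrays was 0.53, the lowest of the 5. Tkt encodes transketolase of the pentose phosphate pathway, and it differed by -0.55 in HFoleic vs. Ref (adjusted p 0.0186). These correlations are over 20 arrays that share a normalization, and the genes outside the lists were picked among all tested genes for them.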

How the data were processed

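Total RNA of VAT of 20 mice was labelled with Cy3 and hybridized to 1-colour Agilent arrays on 3 slides, each with mice of all groups. A slide held 2 Ref, 1 to 3 HFoleic and 2 or 3 HFepa mice. The authors extracted the deposited spot intensity values from the images with Agilent Feature Extraction 10.10.1.1, and the median intensity is on a linear scale without normalization. A second deposited file holds log2 values, which the authors made from it by filtering and quantile normalization, and served as an alternative. RNA below an integrity limit was left out by the authors.

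Control spots were removed, and spots carrying the software's non-uniformity or outlier mark were set to missing, in R 4.3.3 (limma 3.58.1). Probes above background on at least 6 arrays were kept (39390), and log2 median intensities were quantile normalized without background correction and averaged by probe. Background signal left in the values makes differences of dim probes too small. One mean per group was fitted to all arrays with lmFit, followed by eBayes and Benjamini–Hochberg adjustment. A gene is its brightest probe. No 2 arrays were the same (highest correlation 0.996). The limma fit and its adjustment were tested on values simulated around the normalized probe means, drawn independently for each probe. The steps before the fit were not tested in this way.

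The genes, the lists and the alternatives were chosen with earlier results of these data known. The text names all 10 genes, the 3 partners per list with the smallest p in HFoleic vs. Ref, every partner called in another comparison, and the 5 genes most like the mean of the 10. Other partners are named where a count or correlation singled them out, after their values were seen. Alternatives were the processed signal minus its 75th percentile, the mean signal with normexp and an offset of 50, median centring, the authors' values, other filters, marked spots kept, slide or replicate as a block, compared groups only, the mean of all probes, values relative to adipocyte markers, each array left out, and, added after seeing the data, the fit without 5 arrays with epididymis or testis markers and the correlations without the 2 mice of highest mean level. The number of mice limits the precision.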

Additional observations from a re-analysis of the deposited data

Results flagged for a closer look

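In 5 of the 30 sets of values (10 genes in 3 groups) 1 mouse stood apart from the rest of its group by Dixon's test at its 95% limit, a limit that chance passes in about 1 group in 20. Ref mouse 7 had an Acly level of 14.36, with the next at 13.50. HFoleic mouse 1 had an Acaca level of 14.36, with the next at 13.77, and a Scd2 level of 12.50, with the next at 14.07, in both cases toward the Ref mice. HFoleic mouse 4 had a Scd1 level of 17.58, with the next at 17.78. HFepa mouse 8 had a Me1 level of 15.27, with the next at 14.83.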

How the results depend on the processing

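Over 33 alternatives, the directions and calls of Acaca, Acacb and Scd2 in HFoleic vs. Ref held throughout, and that of Elovl6 in 31. In HFoleic vs. Ref, between 3 and 6 of the 10 genes were called. The 3 came without the 5 arrays with epididymis or testis markers (6395 of 39390 probes called). The 6 came by the mean of all probes (8086 of 25618 genes called) and relative to the adipocyte level (22352 of 39390 probes called). The 1 gene called in HFepa vs. Ref became 0 with the replicate block, with only the compared groups in the fit, and without the 5 arrays with epididymis or testis markers. In that comparison these fits called 25, 140 and 0 of all probes, against 892 in the fit used above. The replicate number marks no shared animal, and deviations of same-numbered mice correlated from -0.59 to 0.56, so the numbers were not used as pairs. The replicate block left 12 of the 23 partners called in HFoleic vs. Ref, and Acaca at an adjusted p of 0.108 in HFepa vs. Ref. Without the 5 arrays 10 partners were called in HFoleic vs. Ref. Over all 39390 probes, that fit called 6395 and the replicate block 7873 in this comparison, against 12147 in the fit used above. With the slide as a block, 5 partners rather than 0 were called in HFepa vs. HFoleic, and 1297 of all probes rather than 1. When each array was left out in turn, the genes called numbered 4 to 5 in HFoleic vs. Ref, 0 to 2 between HFepa and Ref and 0 to 2 between HFepa and HFoleic, and the partners 18 to 24, 0 to 2 and 0 to 5. The highest counts between HFepa and Ref were reached without HFepa mouse 3, in a fit that called 2503 probes there. Those between HFepa and HFoleic were reached without HFepa mouse 1, in a fit that called 2864 probes there.

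Signs turned only for differences that were not called. Relative to the adipocyte level these were Fasn (0.18), Scd1 (0.15) and Mlxipl (0.17) in HFoleic vs. Ref, Me1 (0.12) and Acly (0.14) in HFepa vs. Ref and Scd1 (-0.16) in HFepa vs. HFoleic. By the mean of all probes Mlxipl turned to -0.058 in HFepa vs. Ref, and it was called at -0.30 in HFoleic vs. Ref. Leaving out 1 array gave ranges across 0 in HFepa vs. Ref for Srebf1 (-0.0077 to 0.15), Me1 (-0.18 to 0.10) and Acly (-0.11 to 0.13), and in HFepa vs. HFoleic for Srebf1 (-0.10 to 2.96e-05) and Scd1 (-0.0068 to 0.10). Over all probes, 12147 were called in HFoleic vs. Ref, 6004 of them higher, against 22352 and 21198 relative to the adipocyte level and 7873 with the replicate block. In HFepa vs. Ref 892 were called, against 575 after median centring, 583 without the filter on dim probes, 140 with the compared groups only, 106 relative to the adipocyte level and 25 with the replicate block. In HFepa vs. HFoleic 1 was called, against 1297 with the slide as a block. The cause of these shifts was not tested.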
